A study of Mus musculus with 9 samples.

Results

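Arachidonic acid is cut from membrane phospholipids by phospholipases A2, and the group IV (cytosolic) enzymes are one family of these. Cyclooxygenases turn the freed acid into prostaglandin H2, terminal synthases such as the product of Ptges turn that into prostaglandin E2, and 15-hydroxyprostaglandin dehydrogenase, the product of Hpgd, inactivates it. In skin, prostaglandins are known as mediators of vasodilation, pain and inflammation. The 10 genes described here are 6 group IV phospholipases (Pla2g4a to Pla2g4f), the cyclooxygenases Ptgs1 and Ptgs2, Ptges and Hpgd, out of 54838 genes in the count tables. They were chosen by name from this pathway after the raw counts of all 3 groups had been seen. Their values are therefore descriptions, with no p-value from the fits made here, and nothing is read from how many of them were called. The authors' false discovery rates quoted for Pla2g4a and Hpgd come from the same counts and are descriptions too.

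RNA came from ears of C57BL/6 mice aged 10 weeks and was sequenced as 3' tags, with 3 libraries in each of 3 groups. The groups were wild type given green fluorescent protein (GFP) DNA, called controls below, wild type given interleukin 23 (IL-23) DNA, called IL-23 wild type, and MDL1-/- given IL-23 DNA, called IL-23 knockouts. All mice were injected hydrodynamically by tail vein with 15 µg of minicircle DNA, a small circular expression vector, so every group shares that procedure. No MDL1-/- library with GFP DNA was analysed here, so a genotype difference that precedes IL-23 and one that follows it cannot be told apart. Separate animals are not stated for the 3 libraries of a group, and the spread between them may be technical.

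Totals were 3776188 to 5605713 counts per library, several times the 600000 reads a sample that the labels state, a mismatch the sources used here do not explain. Scaling by trimmed mean of M-values (TMM) set the library size behind CPM, the usual count scaled per library, to 1.14 to 1.17 times the total in controls, 0.801 to 0.928 in IL-23 wild type and 0.932 to 1.001 in IL-23 knockouts. Clec5a, the gene of the myeloid receptor MDL-1, had 2, 7 and 10 counts in controls, 17, 21 and 11 in IL-23 wild type and 10, 13 and 5 in IL-23 knockout libraries. A 3' tag outside the deleted part, which the labels do not name, does not check the knockout. All 8 keratinocyte markers of the list used had counts.

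The upstream sequences of the 4 genes with the largest rises under IL-23 DNA are shown first, because Pla2g4d and Pla2g4e are neighbours that moved together and Ptgs2 and Ptges act downstream of the phospholipases. They are from RefSeq on GRCm38.p6, written 5′ to 3′ on the gene's strand and ending at the annotated start, or for Pla2g4d 128 bases before it, where an exon of the GENCODE annotation begins. Ptgs2 is chr1:150099781-150100030 (plus strand), Ptges chr2:30903298-30903547 (minus), Pla2g4e chr2:120245336-120245585 (minus) and Pla2g4d chr2:120289198-120289319 (minus). The RefSeq start used for Ptges lies inside the GENCODE span of that gene, 30889471 to 30929863, so its window is not upstream of the whole span. Capitals mark the C/EBP motif TTGCGCAA.
Pla2g4d: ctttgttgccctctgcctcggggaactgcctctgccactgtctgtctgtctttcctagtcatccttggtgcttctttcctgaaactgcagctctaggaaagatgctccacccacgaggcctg
Pla2g4e: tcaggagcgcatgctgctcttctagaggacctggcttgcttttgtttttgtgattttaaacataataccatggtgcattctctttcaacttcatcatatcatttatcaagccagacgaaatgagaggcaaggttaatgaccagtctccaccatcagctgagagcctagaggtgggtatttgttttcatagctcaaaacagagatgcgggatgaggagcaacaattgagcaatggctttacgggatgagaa
Ptgs2: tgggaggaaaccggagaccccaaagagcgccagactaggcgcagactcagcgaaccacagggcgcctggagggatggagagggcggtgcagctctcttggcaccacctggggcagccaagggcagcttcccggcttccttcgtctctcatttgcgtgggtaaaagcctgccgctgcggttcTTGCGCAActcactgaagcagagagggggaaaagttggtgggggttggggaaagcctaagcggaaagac
Ptges: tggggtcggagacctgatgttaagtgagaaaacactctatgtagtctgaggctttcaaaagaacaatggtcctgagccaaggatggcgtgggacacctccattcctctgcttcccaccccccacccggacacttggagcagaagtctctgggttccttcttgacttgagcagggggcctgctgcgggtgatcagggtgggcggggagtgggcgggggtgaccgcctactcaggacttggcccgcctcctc

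The 6 motifs were searched on both strands of the 250 bases before each RefSeq start, and none of them overlaps another in these 4 windows. The letters were TGANTCA for AP-1, TTCNNNGAA for STAT, GGG and TTTCC parted by any 2 bases for NF-kB, TATAAA for a TATA box, CACGTG for an E-box and TTGCGCAA for C/EBP, the last added after the Ptgs2 sequence had been read. The C/EBP letters stood 69 to 62 bases before the Ptgs2 start and are in 0.164% of 32851 such windows. Since they were taken up after that sequence had been read, the match was already known and the share gives it no weight. The TATA letters, on the strand opposite to the gene, stood 31 to 26 bases before the Pla2g4d start, in the stretch not printed, and are in 12.4% of windows. No other match lay in the 4 windows. Among the other windows searched, 1 of Pla2g4a had the TATA letters and 1 of Pla2g4c the NF-kB letters, and both of these genes fell in wild type. The AP-1, STAT, NF-kB and E-box letters are in 6.75%, 7.02%, 1.41% and 6.02% of windows. A match is a description of letters, not a site of binding.

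Under IL-23 DNA in wild-type ear, Pla2g4d, Pla2g4e, Pla2g4f, Ptgs2 and Ptges rose, Pla2g4a and Pla2g4c fell, and neither Ptgs1 nor Hpgd was called. A gene was called when its edgeR quasi-likelihood test, adjusted by Benjamini-Hochberg over all 13807 genes tested, fell under 0.05. Of the 10 genes 9 had enough counts to be tested, and 5 were called higher and 2 lower. Of all tested genes 44.7% were called in this comparison, 22.9% higher and 21.7% lower. The median log2 fold change was 1.18 over the 9 genes and -0.04 over all genes. In bulk ear, fewer cells of a type and less RNA per cell cannot be told apart.

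**Figure D1:**
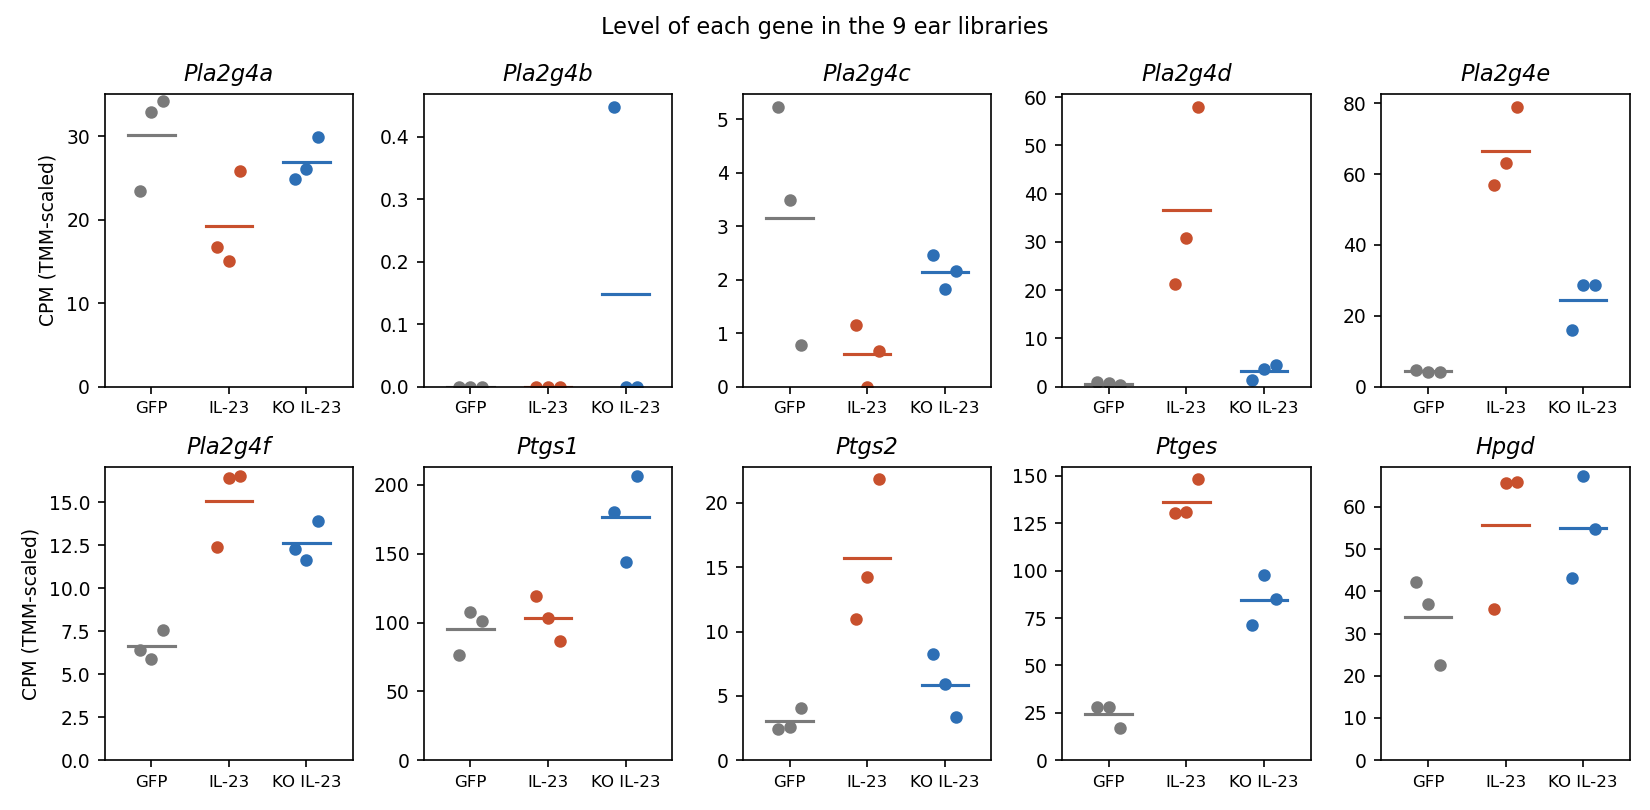
TMM-scaled CPM of each of the 10 genes (y axis, from 0, own scale per panel) in the 9 libraries, by group (x axis; KO is the MDL1-/- knockout); dots are libraries and lines are group means. The IL-23 wild-type libraries are all above both other groups for Pla2g4d, Pla2g4e, Ptgs2 and Ptges, and the IL-23 knockout libraries are all above both other groups for Ptgs1.

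Pla2g4d encodes cytosolic phospholipase A2 delta, an enzyme known from the keratinocytes of psoriatic epidermis. It had 5, 4 and 2 counts in controls, 93, 141 and 175 in IL-23 wild type and 6, 16 and 19 in IL-23 knockouts. No group overlapped another: control libraries were lowest and IL-23 wild-type libraries highest. The level went from 0.638 ± 0.293 to 36.7 ± 18.9 CPM with IL-23 in wild type (SD, n = 3). This was a 55.7-fold rise (log2 fold change 5.80, SE 0.53, 95% interval 4.65 to 6.95), with few counts in controls. In IL-23 knockout ear it stood at 3.19 ± 1.66 CPM, which is 11.4-fold below wild type with the same DNA (log2 fold change -3.51, SE 0.44). Both calls held in all 17 alternative fits.

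Pla2g4e encodes cytosolic phospholipase A2 epsilon, which acts as a calcium-dependent N-acyltransferase on phosphatidylethanolamine. Its counts were 27, 23 and 26 in controls, 249, 289 and 239 in IL-23 wild type and 72, 125 and 120 in IL-23 knockouts. The 3 groups were again separate, with the IL-23 knockout libraries in between. The mean level was 4.32 ± 0.348, 66.5 ± 11.3 and 24.5 ± 7.26 CPM in these groups (SD, n = 3). The rise in wild type was 15.3-fold (log2 fold change 3.93, SE 0.24), and knockouts were 2.71-fold below wild type under IL-23 (log2 fold change -1.44, SE 0.21). Both held in all 17 alternative fits.

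Pla2g4f, which encodes the zeta enzyme of the group, had 37, 32 and 49 counts in controls, 54, 75 and 50 in IL-23 wild type and 55, 51 and 58 in IL-23 knockouts. Both IL-23 groups were above the control group without overlap, and they overlapped each other. It rose 2.26-fold in wild type (log2 fold change 1.18, SE 0.23). The log2 difference of knockouts from wild type under IL-23 was -0.26 (SE 0.22, 95% interval -0.72 to 0.21) and was not called.

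Pla2g4a encodes the alpha enzyme, the best known releaser of arachidonic acid. Its counts were 135, 179 and 221 in controls, 73, 69 and 78 in IL-23 wild type and 111, 114 and 125 in IL-23 knockouts. The level was 30.2 ± 5.83, 19.2 ± 5.76 and 26.9 ± 2.67 CPM (SD, n = 3), and after scaling IL-23 wild-type library 3 reached into the range of the control group. The fall in wild type was 1.60-fold (log2 fold change -0.67, SE 0.22) and was no longer called without control library 3 (-0.57), IL-23 wild-type library 1 (-0.58) or IL-23 wild-type library 2 (-0.52). In the authors' deposited table it has a false discovery rate of 0.0631. Between the IL-23 groups the log2 difference was 0.51 (SE 0.22, 95% interval 0.04 to 0.97), not called except without IL-23 wild-type library 3 (0.76).

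Pla2g4c, whose calcium-independent gamma enzyme lacks a C2 domain, was low, with 30, 19 and 5 counts in controls, 5, 0 and 2 in IL-23 wild type and 11, 8 and 9 in IL-23 knockouts. The control libraries differed widely among themselves and the lowest overlapped the IL-23 wild-type group. The log2 fold change in wild type was -2.36 (SE 0.78), and the call was lost without control library 1 (-1.77) or 2 (-2.25) and without IL-23 wild-type library 2 (-1.70) or 3 (-2.41). It was filtered out with a minimum count of 30 or when only these groups were fitted. IL-23 knockout libraries lay above the IL-23 wild-type libraries without overlap, at a log2 difference of 1.82 (SE 0.84) that was not called. Pla2g4b, the beta enzyme, had 0 counts in both wild-type groups and 2, 0 and 0 in IL-23 knockouts, too few to test. A count of 0 over a group allows up to 0.17 CPM in controls and 0.251 CPM in IL-23 wild type, taking 3 counts as the limit. Its gene overlaps Gm28042 on the same strand, also at 0 in every library, and how reads shared by overlapping genes were counted is not given in the sources used here.

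**Figure D2:**
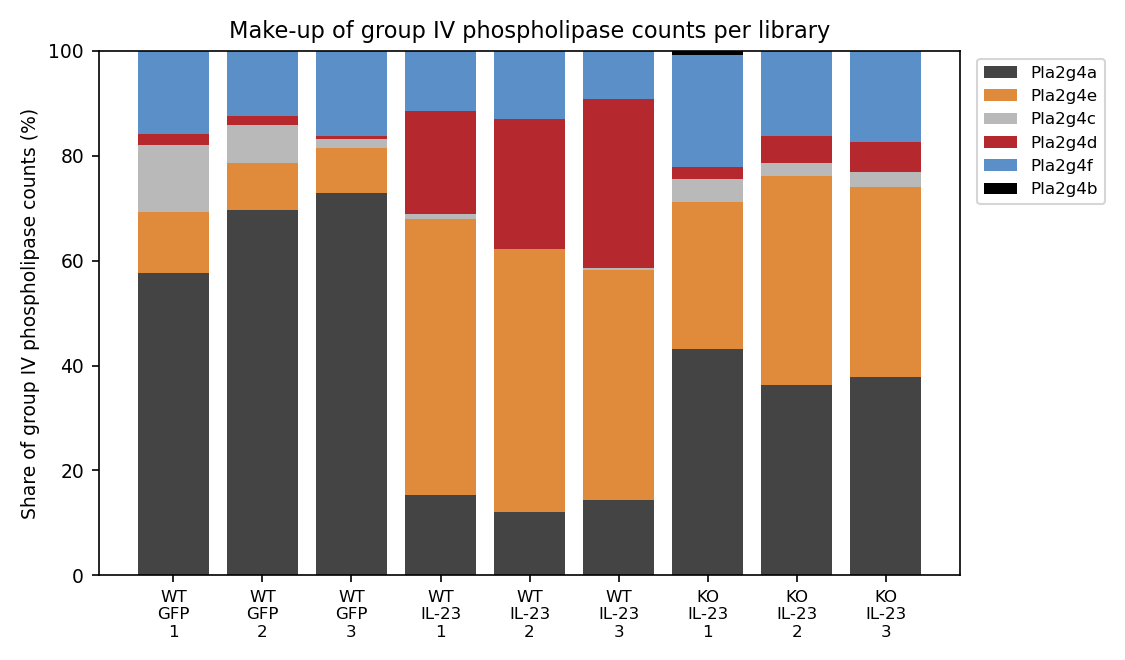
Percentage of the counts of all 6 group IV phospholipase genes that each gene took (stacked bars, y axis) in each of the 9 libraries (x axis; KO is the MDL1-/- knockout). Pla2g4a takes the largest part in each control library, from 57.7% to 72.9%, and Pla2g4e in each IL-23 wild-type library, from 43.9% to 52.5%.

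Shares of counts within a library do not depend on how libraries are scaled, although they are not shares of molecules. Pla2g4a took 66.8% ± 8.02 of group IV counts in controls, 13.9% ± 1.73 in IL-23 wild type and 39.1% ± 3.63 in IL-23 knockouts (SD, n = 3), with no overlap between groups. Pla2g4e took 9.69% ± 1.61, 48.9% ± 4.47 and 34.7% ± 6.05, and Pla2g4d 1.45% ± 0.744, 25.5% ± 6.32 and 4.39% ± 1.81. The groups overlapped in none of these shares. A library held 234 to 574 group IV counts in all. Pla2g4e and Pla2g4d together thus held most of the family's counts in IL-23 wild type, while Pla2g4a was foremost in each control and IL-23 knockout library except IL-23 knockout library 2, where Pla2g4e had 39.8% and Pla2g4a 36.3%.

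Pla2g4b, Pla2g4e, Pla2g4d and Pla2g4f stand in this order within 281 kb of chromosome 2 (GRCm38, 120033417 to 120314165), and the last 3 are all on the minus strand. Pla2g4e spans 120166412 to 120245335 and Pla2g4d 120265595 to 120289197. Gaps of 20.3 kb separate Pla2g4e from Pla2g4d and 10.8 kb Pla2g4d from Pla2g4f. Ehd4, an endocytic gene between Pla2g4b and Pla2g4e that is no member of the family, had a log2 fold change of 1.07 (SE 0.17, edgeR adjusted p = 0.000156) under IL-23 in wild type. Jmjd7, next to Pla2g4b, had 1.13 (SE 0.41, adjusted p = 0.0345), and Mapkbp1, beyond Jmjd7, had 0.005 (SE 0.15, adjusted p = 0.98). Beyond Pla2g4f, the trafficking gene Vps39 had 0.25 (SE 0.24, adjusted p = 0.414), Tmem87a -0.61 (SE 0.17, adjusted p = 0.00943) and Ganc -0.83 (SE 0.22, adjusted p = 0.0065). Between the IL-23 groups Jmjd7 had -1.25 (SE 0.43, adjusted p = 0.0533), within its SE of Pla2g4e at -1.44. There Vps39 was lower at -0.83 (SE 0.26, adjusted p = 0.0356), Tmem87a higher at 0.62 (SE 0.18, adjusted p = 0.0245) and Ehd4 at -0.41 (SE 0.17, adjusted p = 0.102). Mapkbp1 was at -0.43 (SE 0.15, adjusted p = 0.0637) and Ganc at 0.32 (SE 0.23, adjusted p = 0.351) in that comparison. These neighbours were picked by position after the values had been seen. Pla2g4a and Ptgs2 are neighbours too, 139 kb apart on chromosome 1, and moved in opposite directions in wild type. The remaining genes and this pair lie on the same build with Pla2g4c at 13324655 to 13360672 of chromosome 7 (plus), Ptgs1 at 36230426 to 36252272 of chromosome 2 (plus), Ptges at 30889471 to 30929863 of chromosome 2 (minus), Hpgd at 56294585 to 56321043 of chromosome 8 (plus), Pla2g4a at 149829618 to 149961290 of chromosome 1 (minus) and Ptgs2 at 150100031 to 150108227 of chromosome 1 (plus).

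**Figure D3:**
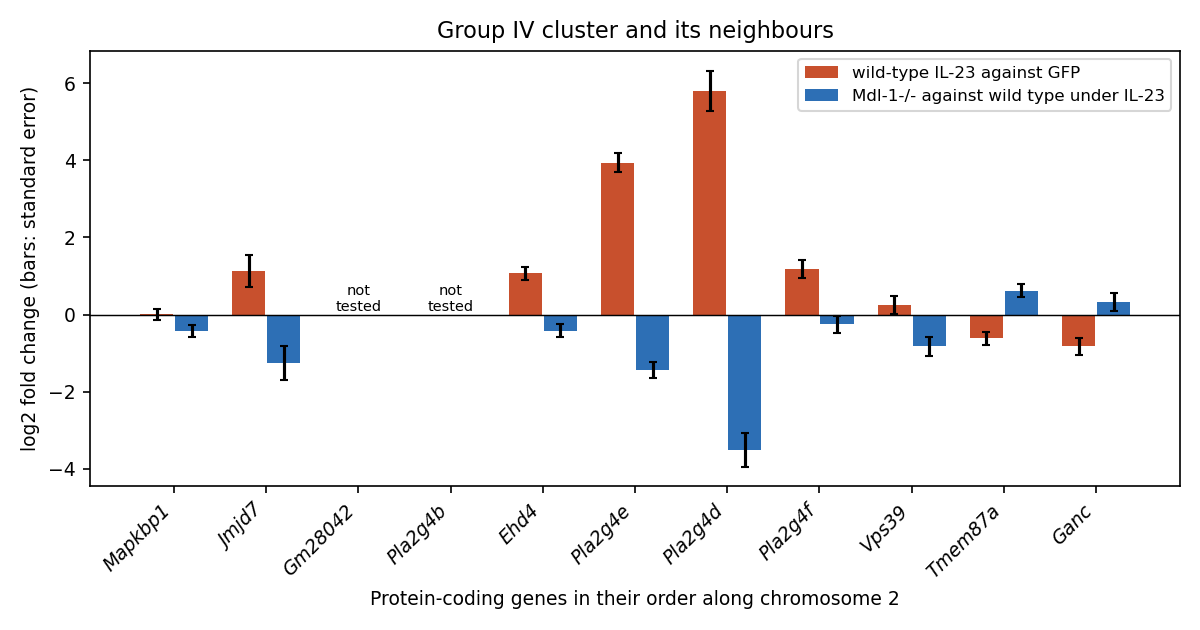
Log2 fold change (bars, with standard error) of the tested genes around the chromosome 2 group IV cluster, in their order along the chromosome (x axis), for IL-23 wild type against controls and for IL-23 knockouts against IL-23 wild type. Pla2g4d, at 5.80 and -3.51, has the largest bar in both comparisons, and Pla2g4e, at 3.93 and -1.44, lies close to Jmjd7, at -1.25, in the second.

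Ptgs2 encodes the inducible cyclooxygenase. It had 14, 14 and 26 counts in controls, 48, 65 and 66 in IL-23 wild type and 37, 26 and 14 in IL-23 knockouts. IL-23 wild-type libraries were above both other groups, whose ranges overlapped each other. The level rose from 3.01 ± 0.879 to 15.7 ± 5.55 CPM (SD, n = 3) in wild type, 5.06-fold (log2 fold change 2.34, SE 0.35). It was 5.86 ± 2.46 CPM in IL-23 knockout ear, 2.62-fold below wild type under IL-23 (log2 fold change -1.39, SE 0.34). The lower level in knockouts was not called without IL-23 wild-type library 3 (-1.09) or IL-23 knockout library 3 (-1.10).

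Ptgs1 encodes the constitutive cyclooxygenase and showed another pattern. Its counts were 438, 587 and 654 in controls, 520, 473 and 261 in IL-23 wild type and 806, 630 and 862 in IL-23 knockouts. Scaled levels of the wild-type groups overlapped, at 95.1 ± 16.7 and 103 ± 16.5 CPM, and every IL-23 knockout library was above them, at 177 ± 31.4 CPM (SD, n = 3). The wild-type log2 fold change was 0.12 (SE 0.17, 95% interval -0.25 to 0.49; -0.033 with upper-quartile scaling). Knockouts were 1.71-fold above wild type under IL-23 (log2 fold change 0.78, SE 0.17), a call that held in all 17 alternative fits. Ptgs1 is a gene of platelets and mast cells as well as skin. The 6 platelet markers summed to 8.51 to 17.5, 7.88 to 15.2 and 8.63 to 11.8 CPM in controls, IL-23 wild type and IL-23 knockouts, and neither of the 2 tested platelet markers was called in any comparison. Of 5 tested mast cell markers 3 were higher and 1 lower in IL-23 knockouts than in IL-23 wild type (median log2 difference 1.70). Against controls, 3 were lower and 1 higher in IL-23 wild type (median -2.30), and none was called in IL-23 knockouts (median -0.41). The 7 listed mast cell markers summed to 124 to 158 CPM in IL-23 wild type and 15.6 to 50.3 in IL-23 knockouts, a sum led by Hdc. The part of these markers in the level of Ptgs1 was not tested.

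Set against each other within a library, Ptgs2 made up 3.10%, 2.33% and 3.82% of the cyclooxygenase counts in controls. It made up 8.45%, 12.1% and 20.2% in IL-23 wild type and 4.39%, 3.96% and 1.60% in IL-23 knockouts. The IL-23 wild-type libraries were above all others, and the other groups overlapped. Here the totals of the pair were 327 to 876 counts per library.

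Ptges encodes the inducible microsomal prostaglandin E synthase. It had 160, 153 and 108 counts in controls, 569, 598 and 448 in IL-23 wild type and 320, 426 and 354 in IL-23 knockouts. The groups did not overlap, with the IL-23 knockout libraries between the wild-type groups. Levels were 24.2 ± 6.51, 136 ± 10.1 and 84.6 ± 12.9 CPM (SD, n = 3). The rise in wild type was 5.65-fold (log2 fold change 2.50, SE 0.19) and knockouts were 1.61-fold below wild type under IL-23 (log2 fold change -0.69, SE 0.18). That lower level was no longer called without IL-23 wild-type library 2 (-0.70) or 3 (-0.62), or without IL-23 knockout library 1 (-0.58) or 3 (-0.67).

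Hpgd, the gene of prostaglandin breakdown, had 242, 202 and 146 counts in controls, 156, 300 and 199 in IL-23 wild type and 193, 294 and 229 in IL-23 knockouts. The wild-type groups overlapped through IL-23 wild-type library 1. The log2 fold change in wild type was 0.71 (SE 0.28, 95% interval 0.11 to 1.31) and was not called. It was called in 8 of 17 alternative fits, among them DESeq2 (0.74) and the fit without IL-23 wild-type library 1 (0.97), and the authors' deposited table gives it a false discovery rate of 0.0393. Between the IL-23 groups the log2 difference was -0.013 (SE 0.27, 95% interval -0.61 to 0.58).

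In IL-23 knockouts against IL-23 wild type, Pla2g4d, Pla2g4e, Ptgs2 and Ptges were called lower and Ptgs1 higher, so 4 of the 9 tested genes were lower and 1 higher. Of all tested genes 17.7% were called, 7.58% higher and 10.1% lower. The median log2 difference was -0.26 over the 9 genes and 0.00 over all genes. Without IL-23 knockout library 3, 3 of the genes were called, 2 lower and 1 higher, since Ptgs2 and Ptges dropped out. Both also dropped out without IL-23 wild-type library 3, where Pla2g4a was called higher, giving 2 lower and 2 higher. Without IL-23 wild-type library 2 or IL-23 knockout library 1, Ptges dropped out, leaving 3 lower and 1 higher.

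Set against controls, IL-23 knockout ear had more Pla2g4d, Pla2g4e, Pla2g4f, Ptgs1 and Ptges, so 5 of 9 were called higher and none lower. Of these, Ptgs1 was not called in IL-23 wild type against controls. Of all tested genes 17.1% were called in that comparison, 10.2% higher and 6.93% lower. This comparison shares its libraries with the other 2 and adds no independent information. Side by side, the log2 fold changes against controls in wild type and in IL-23 knockouts were 5.80 and 2.29 for Pla2g4d, 3.93 and 2.50 for Pla2g4e, and 1.18 and 0.92 for Pla2g4f. They were 2.50 and 1.81 for Ptges, 0.12 and 0.90 for Ptgs1, and 2.34 and 0.95 for Ptgs2, the last not called in knockouts except without IL-23 knockout library 3 (1.24). Hpgd had 0.71 and 0.70 and was called in neither, although the second was called with no count filter (0.70) and without IL-23 wild-type library 1 (0.71). Pla2g4a had -0.674 and -0.165 and Pla2g4c -2.356 and -0.532, both called lower in wild type and not called in IL-23 knockouts. The higher level of Pla2g4d in knockouts was not called in any fit without a control library (1.96 to 2.61) nor without IL-23 knockout library 2 (2.19) or 3 (1.97), and the gene was filtered out when only these groups were fitted.

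**Figure D4:**
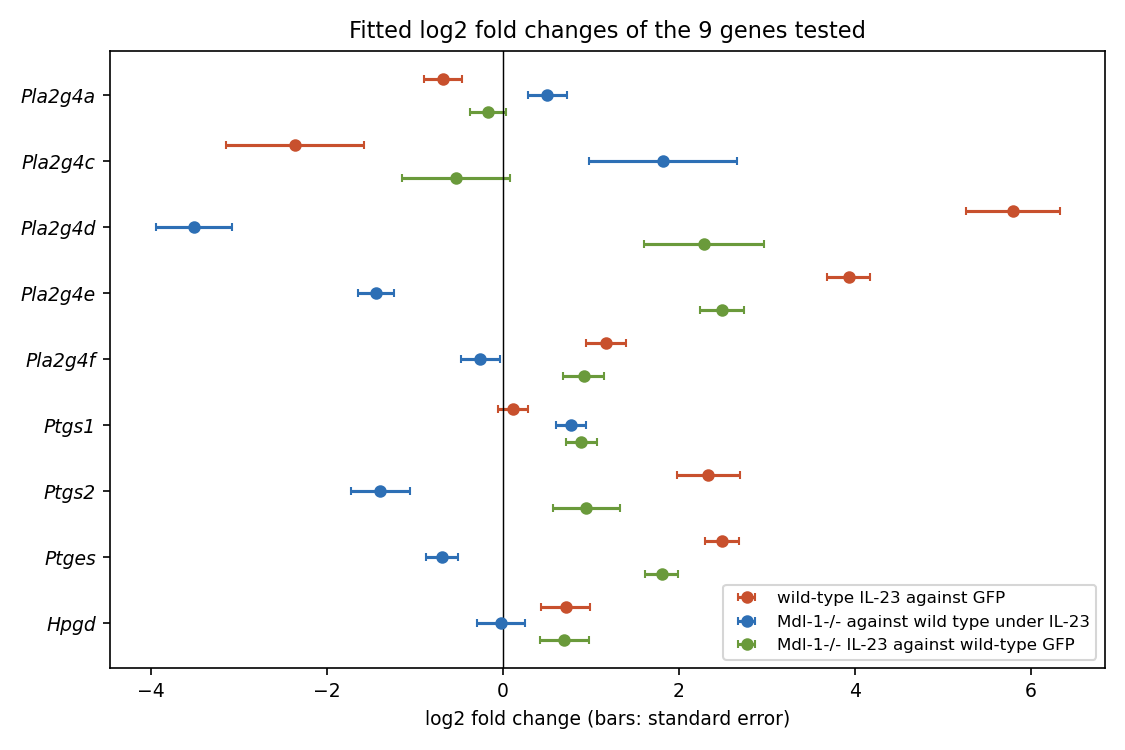
Fitted log2 fold change (x axis, bars are standard errors) of the 9 tested genes in the 3 comparisons, which share libraries. Pla2g4d spans the widest range, from -3.51 for IL-23 knockouts against IL-23 wild type to 5.80 for IL-23 wild type against controls.

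The other genes of prostanoid and leukotriene metabolism came from lists of 46 genes found in the tables, of which 28 could be tested. Under IL-23 in wild type 7 rose and 8 fell (median log2 fold change 0.09, against -0.04 for all genes), where 22.9% and 21.7% of all tested genes did. In IL-23 knockouts against IL-23 wild type, 4 of the 28 were higher and 2 lower (median -0.02, against 0.00), where 7.58% and 10.1% of all tested genes were.

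Among 8 other phospholipases A2, Pla2g2d and Pla2g2f rose and Pla2g5 and Pla2g16 fell in wild type. Pla2g2d, a secreted enzyme of dendritic cells, went from 1, 0 and 1 counts to 14, 24 and 29. The call was higher (edgeR adjusted p = 2.80e-05), and the ratio of pooled scaled counts was 49.5 (exact 95% interval 13.2 to 417, covering counting error only). Its log2 difference of IL-23 knockouts from IL-23 wild type was -1.34 (SE 0.47, edgeR adjusted p = 0.0601). That was not called, except in 2 of 16 alternative fits. Pla2g2f, the secreted enzyme of the upper epidermis, rose 2.78-fold (log2 fold change 1.48, SE 0.28, edgeR adjusted p = 0.00142). In IL-23 knockouts it had a log2 difference of 0.24 from wild type under IL-23 (SE 0.27, adjusted p = 0.576; -0.078 without IL-23 knockout library 1). Pla2g5, another secreted enzyme, was 3.69-fold lower in wild type (adjusted p = 0.00483). IL-23 knockouts lay above IL-23 wild type for it without overlap, at a log2 difference of 1.11 (SE 0.46, edgeR adjusted p = 0.119). That was not called, except in 5 of 17 alternative fits. Pla2g16, known as an adipocyte phospholipase, was 2.96-fold lower in wild type (log2 fold change -1.56, SE 0.21, adjusted p = 2.64e-05) and 1.90-fold higher in IL-23 knockouts than in IL-23 wild type (adjusted p = 0.00795). Adipocyte markers summed to 204 to 422 CPM in controls, 44.97 to 85.6 in IL-23 wild type and 57.4 to 84.3 in IL-23 knockouts, with 5 of 5 tested called lower in wild type and none called between the IL-23 groups; their part in the fall of Pla2g16 was not tested.

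Of 7 other prostanoid synthases, Hpgds rose and Ptgis, the prostacyclin synthase gene, fell in wild type. Hpgds, the hematopoietic prostaglandin D synthase, had 85, 131 and 100 counts in controls, 274, 362 and 333 in IL-23 wild type and 160, 155 and 165 in IL-23 knockouts, with no overlap between groups. It rose 4.63-fold (log2 fold change 2.21, SE 0.22, edgeR adjusted p = 3.09e-06) and was 2.27-fold lower in IL-23 knockouts than in IL-23 wild type (-1.18, SE 0.21, adjusted p = 0.00290). Ptgis was 4.55-fold lower in wild type (adjusted p = 0.00582). The other E synthases, Ptges2 and Ptges3, had log2 fold changes of 0.21 (SE 0.33, adjusted p = 0.634) and 0.34 (SE 0.14, adjusted p = 0.0610) there.

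Genes of transport and breakdown went both ways. Slco2a1, the prostaglandin transporter, was 2.001-fold lower in IL-23 wild type (edgeR adjusted p = 0.000543, log2 fold change -1.001, SE 0.19). Zadh2, a prostaglandin reductase, was 2.21-fold lower there (adjusted p = 3.76e-05) and 1.72-fold higher in IL-23 knockouts than in IL-23 wild type (adjusted p = 0.00483). Ptgr1, a reductase of prostaglandins and of leukotriene B4, rose 1.62-fold in wild type (adjusted p = 0.00607).

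Of the 4 prostaglandin E2 receptors only Ptger4 was high enough to be tested. It had 126, 140 and 149 counts in controls, 35, 54 and 22 in IL-23 wild type and 110, 69 and 77 in IL-23 knockouts. IL-23 wild-type libraries were below both other groups. Its 2.57-fold fall under IL-23 was called (log2 fold change -1.36, SE 0.23, edgeR adjusted p = 0.000239), and knockouts were 2.14-fold above wild type under IL-23 (1.10, SE 0.24, adjusted p = 0.00652). Ptger4 thus fell in the group where Ptges and Ptgs2 were highest. Ptger1 had 0 to 2 counts per library, Ptger2 0 to 2 and Ptger3 3 to 18. Ptgfr, the receptor of prostaglandin F2 alpha, was 2.57-fold lower in IL-23 wild type (adjusted p = 0.00424).

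**Figure D5:**
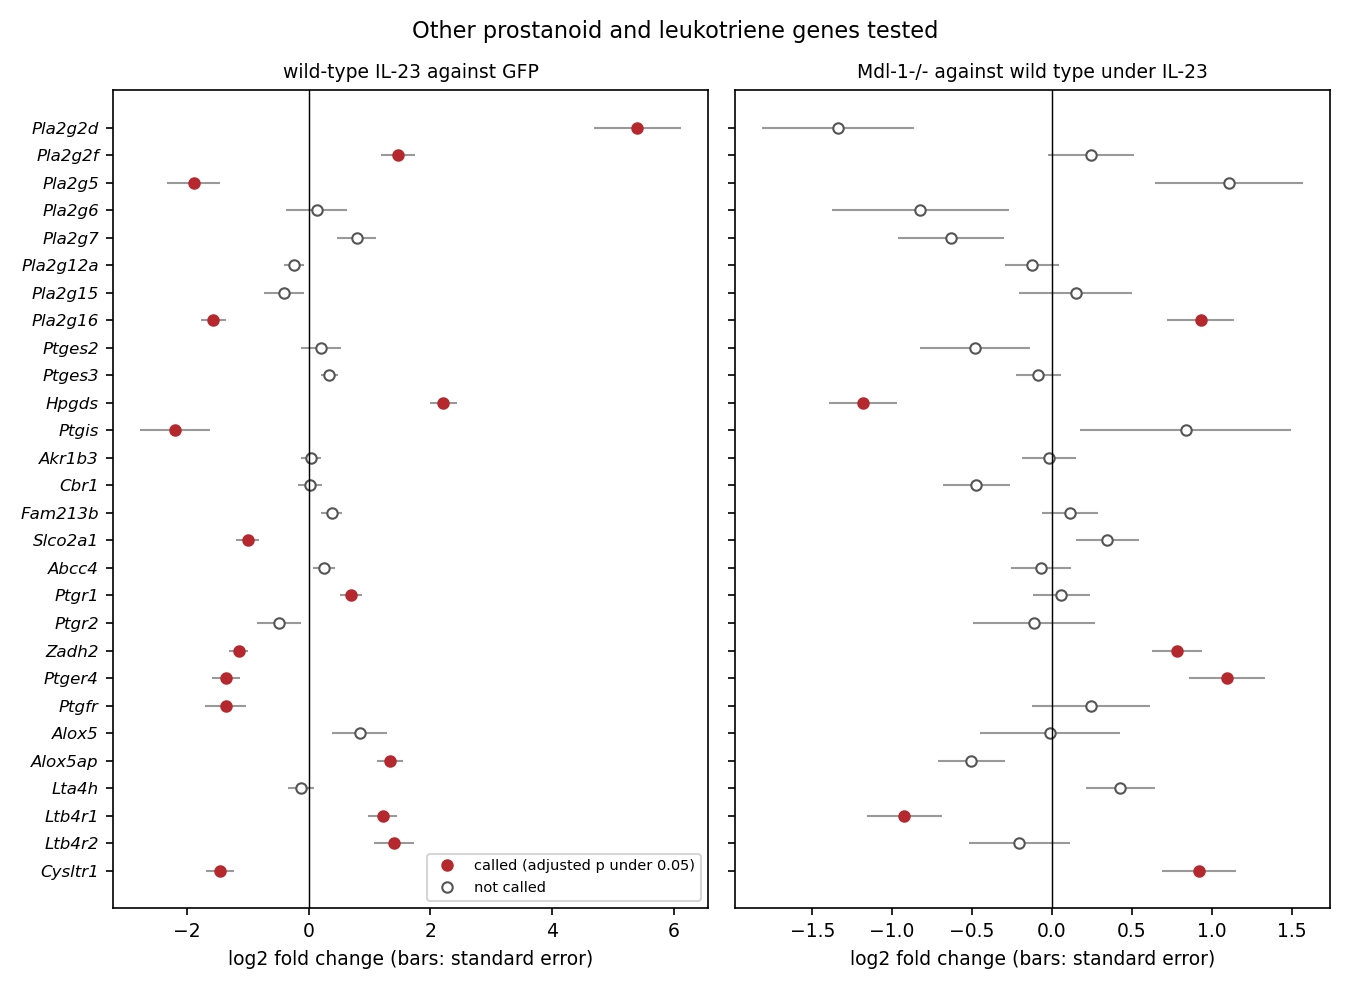
Log2 fold change (x axis, bars are standard errors) of the 28 tested genes outside the 10 described, for IL-23 wild type against controls (left) and IL-23 knockouts against IL-23 wild type (right); filled dots were called. On the left 7 are called higher and 8 lower, on the right 4 higher and 2 lower.

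Of 6 leukotriene genes 3 rose and 1 fell in wild type. Alox5ap, which presents arachidonic acid to 5-lipoxygenase, rose 2.54-fold (edgeR adjusted p = 0.000135). The leukotriene B4 receptor genes Ltb4r1 and Ltb4r2 rose 2.33-fold (adjusted p = 0.000620) and 2.64-fold (adjusted p = 0.00311). Cysltr1, a receptor of cysteinyl leukotrienes, was 2.74-fold lower (adjusted p = 0.000103). In IL-23 knockouts against IL-23 wild type, Ltb4r1 was 1.90-fold lower (log2 -0.92, adjusted p = 0.0150) and Cysltr1 1.89-fold higher (0.92, adjusted p = 0.0144). The Ltb4r1 call was lost without IL-23 wild-type library 1 (-0.76) or IL-23 knockout library 1 (-0.90) or 3 (-0.74), and the Cysltr1 call without IL-23 wild-type library 2 (0.84) or IL-23 knockout library 1 (0.86).

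Over the 9 libraries, the 5 tested genes with the log2 CPM pattern most like that of Pla2g4d were Hnrnpk (Pearson r = 0.996), Prelid3b (0.988), Txnrd1 (0.987), Atp5o (0.986) and Cct7 (0.986). These genes are widely expressed, and Hnrnpk moved over a far narrower range, from 414 to 747 and 506 CPM in controls, IL-23 wild type and IL-23 knockouts. Within the pathway, Pla2g4e had r = 0.943 with Pla2g4d and 0.977 with Ptges. These values are over 9 libraries that share groups and scaling, and are given as descriptions.

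Several marker lists of cell types also differed between the groups, but not in the same pattern. Keratinocyte markers summed to 9874 to 13085 CPM in controls, 22378 to 25523 in IL-23 wild type and 27487 to 29992 in IL-23 knockouts, with 6 of 8 called higher in wild type and 2 higher and 2 lower between the IL-23 groups. Krt10 had the highest mean count of this list over the 9 libraries together. Neutrophil markers, led by S100a8, which keratinocytes also express, ran from 206 to 345, 34892 to 74209 and 6652 to 25937 CPM. All 5 tested neutrophil markers rose in wild type and 2 of 5 were lower in IL-23 knockouts. Macrophage markers summed to 21.8 to 50.3, 39.9 to 83.3 and 50.3 to 62.1 CPM, with 2 of 5 called higher in wild type and none between the IL-23 groups. Mast cell markers, led by Hdc, which neutrophils can also express, summed to 30.3 to 35.6, 124 to 158 and 15.6 to 50.3 CPM, although 3 of 5 fell and 1 rose in wild type. Between the IL-23 groups 3 of these 5 were higher in knockouts and 1 lower (median log2 difference 1.70), against the direction of that sum. None of the markers of these lists was at 0 in all libraries, and their part in the levels of the 10 genes was not tested.

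Of sebaceous gland markers 5 of 5 fell in wild type and 2 were higher and 1 lower in IL-23 knockouts than in IL-23 wild type. Of skeletal muscle markers 2 of 6 fell in wild type, of fibroblast markers 2 of 6 and of endothelial markers 1 of 4. Between the IL-23 groups 1 muscle marker was higher, 1 endothelial marker lower and no fibroblast marker called.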

How the data were processed

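The submitters' processing notes name the tools STAR 2.7.0a, featureCounts and edgeR; the build named there, GRCh38.p6, is a human one, while gene identifiers are mouse. The authors' deposited tables hold raw counts per gene, and log2 fold changes, mean log2 CPM, p-values and false discovery rates of their edgeR comparisons; only false discovery rates are quoted. Count tables were joined (0 values differed between copies of a library). Symbols and positions are from GENCODE M21 on GRCm38; strand, multi-mapping and overlap settings: not given in the sources used here.

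Counts were tested across all genes with edgeR 4.0.16 in R 4.3.3 (filterByExpr, minimum count 10; TMM; 1 robust quasi-likelihood model of 3 group means, 6 residual degrees of freedom). SE values come from the F statistic. Log2 CPM used a prior count of 2. Alternatives were other scalings, filters and dispersions, DESeq2 1.42.0, fits of 2 groups, a replicate block and each library left out. The procedure was also run on simulated data in which few genes changed, as many up as down. That setting differs from these data, does not check the scaling, and nothing is drawn from it.

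Members and lists were chosen with earlier results of these data known. Named were all members, every called gene of the pathway lists (up to 4 per list), the 4 prostaglandin E2 receptors, the leading gene of a marker list and the 5 genes most correlated with the member of largest fold change.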

Additional observations from a re-analysis of the deposited data

How the results depend on the processing

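Upper-quartile scaling shifted the median log2 fold change of all genes from -0.04 to -0.20 in IL-23 wild type against controls, and the share of calls that were higher from 51.3% to 38.9%; from 42.9% to 53.2% between the IL-23 groups; and from 59.4% to 43.7% in IL-23 knockouts against controls. The counts of the 10 genes called, 7, 5 and 5 in these comparisons, were the same with that scaling and with the replicate block. Leaving out 1 library gave 5 to 8, 3 to 5 and 4 to 6 of them, 15 to 17, 4 to 8 and 5 to 11 genes of the pathway lists (15, 6 and 9 with all libraries), and 4622 to 6352, 1128 to 2802 and 1340 to 2580 of all genes (6169, 2439 and 2359). Calls over all genes between the IL-23 groups were 1128 and 1300 without IL-23 wild-type library 2 and 3, and 1166 and 1363 without IL-23 knockout library 1 and 3; against controls, knockouts had 1340 without control library 3 and 1365 without IL-23 knockout library 2, and 5 pathway genes in either case. A pairing of libraries by replicate number was neither shown nor excluded. Deviations from group means correlated at -0.086 to 0.230 between same-numbered libraries and at -0.214 to 0.175 between others. Not every library correlated best with its own number, and blocking gave 6257, 2800 and 2682 calls over all genes.

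Signs turned only for values that were not called. For Hpgd between the IL-23 groups the log2 difference was 0.042 with upper-quartile scaling, 0.005 with a minimum count of 30 and 0.028 with only the groups compared, and -0.254 to 0.149 with 1 library left out. For Ptgs1 in wild type it was -0.033 with upper-quartile scaling and -0.009 to 0.242 with 1 library left out. For Pla2g4c in IL-23 knockouts against controls it ran from -0.994 to 0.069 with 1 library left out. Between the IL-23 groups such fits gave -0.078 to 0.427 for Pla2g2f, -0.088 to 0.218 for Ptgr1, -0.361 to 0.594 for Ptgfr and -0.527 to 0.017 for Ltb4r2. Fits with a minimum count of 30 dropped Pla2g4c, Pla2g2d and Ptgis. Depth limits Pla2g4b, Pla2g4c, Pla2g2d and the receptors Ptger1, Ptger2 and Ptger3, which had few counts. It also limits the control level of Pla2g4d, which had 5, 4 and 2 counts there.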
